A study of Mus musculus with 2 samples.

Results

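The core circadian clock genes were followed across the cell types of the steatohepatitic mouse liver. The set held 10 of the 32285 genes of the count matrices, taken by symbol: *Arntl*, *Npas2*, *Nfil3*, *Cry1*, *Per1*, *Per2*, *Per3*, *Nr1d1*, *Nr1d2* and *Dbp*. All 10 had at least 1 UMI (a molecule of RNA counted once by its barcode) in each library. Nuclei came from livers of male C57BL6/J mice kept in 12-h light and dark and fed, from the age of 10 to 12 weeks, a MASH diet for 5 months (fat 40% and fructose 20% of energy, 2% cholesterol). There were 2 snRNA-seq libraries, 1 per genotype: *Themis* flox/flox (Flox) and *Themis* Alb-Cre (HKO), in which Cre under the albumin promoter was to remove the floxed *Themis* in hepatocytes. All mice of both groups were on the diet, and the livers of several mice were pooled in each library. No value therefore has a replicate, no test between the groups was possible, and intervals are 95% intervals for counting error only.

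The library labelled Flox held 58171337 UMIs and the library labelled HKO 40475938, with median depths of 6216 and 2227.5 UMIs per barcode, and 8659 and 9801 nuclei were kept. The libraries shared 27 barcodes. *Themis* itself, on chr10:28668360-28883818 of GRCm38, went against the label: hepatocyte nuclei held it at 163 CPM in the library labelled Flox against 243 CPM in the one labelled HKO, for a ratio of 1.49 (1.45 to 1.54). The counts are of 3′ tags, which check a deletion only where they lie in the deleted stretch, and its place is not given in the sources used here. The libraries are for this reason named by their labels throughout. CPM is the gene's part of the UMIs summed over the nuclei of a type, on the usual CPM scale. Pairs of values give the library labelled Flox first. Types were told by marker UMIs, which gave 5831 and 4443 hepatocyte nuclei, 822 and 1101 stellate, 791 and 1248 endothelial, and 539 and 1277 macrophage nuclei. Over both libraries no marker of these types was at 0 in its own type. Since the same markers told the types, this is no check of the calls. The hour at which the livers were collected is not given in the sources used here, so that collection time and label cannot be told apart.

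The clock is a loop of transcription that runs in nearly every cell and is set by light through the brain and, in the liver, by feeding and by glucocorticoid hormone. BMAL1, the product of *Arntl*, pairs with CLOCK or its relative NPAS2 and switches on the *Per* and *Cry* genes, *Nr1d1*, *Nr1d2* and *Dbp* through E-boxes in their DNA. The PER and CRY proteins then hold BMAL1 back, while REV-ERBα and REV-ERBβ, the products of *Nr1d1* and *Nr1d2*, repress *Arntl*, *Npas2*, *Nfil3* and *Cry1* through a separate element, the RRE. DBP activates and NFIL3 represses at a further element, the D-box. The first group (*Per1*, *Per2*, *Per3*, *Nr1d1*, *Nr1d2* and *Dbp*) is called the Per arm here and the second (*Arntl*, *Npas2*, *Nfil3* and *Cry1*) the Arntl arm; over a day they peak at roughly opposite times.

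Both strands of the 250 bases before the RefSeq start sites (GRCm38.p6) were searched for these elements. A table entry existed for 9 of the 10 genes, *Per2* being the exception, with 11 start sites among them. The letters searched were CACGTG for the E-box, CACGTT for its variant the E′-box, TTANGTAA for the D-box, TAGGTCA or TGGGTCA for the RRE, and TGACGTCA for the CRE, through which CREB acts. The stretches that held a match are shown because they spell the elements named above, with the match in capitals and 10 bases on each side where the window reached. A matched element may be spelled on the opposite strand, so that AACGTG is the E′-box and TGACCTA an RRE.
Per3, a pair of D-boxes, chr4:151044806-151044880, minus strand, within an intron of *Camta1*: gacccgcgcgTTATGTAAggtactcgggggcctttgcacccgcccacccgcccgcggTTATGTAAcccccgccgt
Cry1, E′-box and E-box, chr10:85185099-85185143, minus strand, between genes: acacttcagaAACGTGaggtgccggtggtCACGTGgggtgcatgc
Per1, E-box, chr11:69098773-69098798, plus strand, within an intron of a longer *Per1* transcript: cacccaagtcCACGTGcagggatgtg
Nr1d1, E′-box, chr11:98775390-98775415, minus strand, between genes: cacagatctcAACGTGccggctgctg
Nfil3, RRE, chr13:52981040-52981061, minus strand, in an annotated exon of *Nfil3*: cgctcggaacTGACCTActaac

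The matches are a description of these letters and not of binding. Of all 32851 start-site windows, 6.02% held the E-box, 3.85% the E′-box, 2.06% the D-box, 5.38% the RRE and 1.55% the CRE. *Per3* carried its pair of D-boxes at 205 and 158 bases before the start, and *Cry1* held both kinds of E-box within 79 bases of it. No match lay in the windows of *Arntl*, *Npas2*, *Nr1d2* and *Dbp*, which says only that these letters are not there.

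In hepatocytes the genes of each arm were not alike. *Per1*, *Per3*, *Nr1d1* and *Nr1d2* were higher in the library labelled HKO, and *Nfil3* and *Cry1* lower. *Per2* and *Dbp* lay near 1, *Arntl* was not resolved from 1 and *Npas2* was sparse. Counting intervals that leave out 1 were not counted over all genes, so that they do not set these genes apart. Nuclear receptor genes of the Per arm were higher in the library labelled HKO: *Nr1d1*, on chr11:98767932-98775333, stood at 41.3 CPM (39.5 to 43.2) against 64.0 CPM (61.0 to 67.0), for a ratio of 1.55 (1.45 to 1.65). *Nr1d2*, on chr14:18204054-18239127, stood at 128 and 194 CPM, for a ratio of 1.52 (1.47 to 1.58). *Per1*, the period gene that also answers to glucocorticoid and cAMP, was at 73.6 and 104 CPM, for a ratio of 1.42 (1.35 to 1.49). *Per3* had a smaller ratio of 1.25 (1.22 to 1.28), from 370 CPM (17070 UMIs) to 464 CPM (12754 UMIs). *Per2*, the period gene most closely tied to the negative limb, was at 126 and 119 CPM, for a ratio of 0.946 (0.906 to 0.987). *Dbp*, a PAR-bZIP activator and one of the most rhythmic transcripts of the liver, was at 124 CPM (121 to 127) against 125 CPM (121 to 129), for a ratio of 1.004 (0.962 to 1.05). The Per arm was thus not raised as a whole: its nuclear receptors, *Per1* and *Per3* were higher, while the ratios of *Per2* and *Dbp* lay near 1.

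Of the Arntl arm in hepatocytes, *Nfil3*, the repressor that opposes DBP, stood at 22.8 CPM (21.4 to 24.2) against 13.6 CPM (12.3 to 15.1), for a ratio of 0.598 (0.530 to 0.674). *Cry1*, the repressor that closes the loop late in the night, stood at 10.05 and 6.98 CPM, for a ratio of 0.694 (0.584 to 0.823). Both genes were lower in the library in which *Nr1d1* and *Nr1d2* were higher, and a link between these was not tested. *Arntl*, on chr7:113207465-113314126 the gene without which the loop stops, had 187 and 98 UMIs, or 4.06 and 3.56 CPM, and its ratio of 0.878 (0.680 to 1.13) was not resolved from 1 at this depth. *Npas2*, which can stand in for CLOCK, had 4 and 13 UMIs, or 0.0868 and 0.473 CPM, with a ratio of 5.44 (1.68 to 22.9); it was the only gene of its arm with the higher level in the library labelled HKO, and too sparse for the counts below.

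A gene was counted as past the fold where its ratio was at least 1.5 either way, among genes with at least 50 UMIs of the type over both libraries. In hepatocytes 9 of the 10 clock genes had that depth: 2 were past the fold upwards (*Nr1d1* and *Nr1d2*) and 1 downwards (*Nfil3*). Among all 13183 genes so measured, 10.4% were past the fold upwards and 11.8% downwards. With so few genes and a share of all genes of this size, these counts do not set the clock genes apart by number. *Nr1d1* and *Nr1d2* lay just past the fold, and with TMM factors, which shift hepatocyte log2 ratios by -0.03, 2 clock genes were past it, since *Nr1d2* fell short. The median log2 ratio was 0.41 over the 6 genes of the Per arm and -0.47 over the 3 genes of the Arntl arm with that depth, beside -0.02 over all genes.

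**Figure D1:**
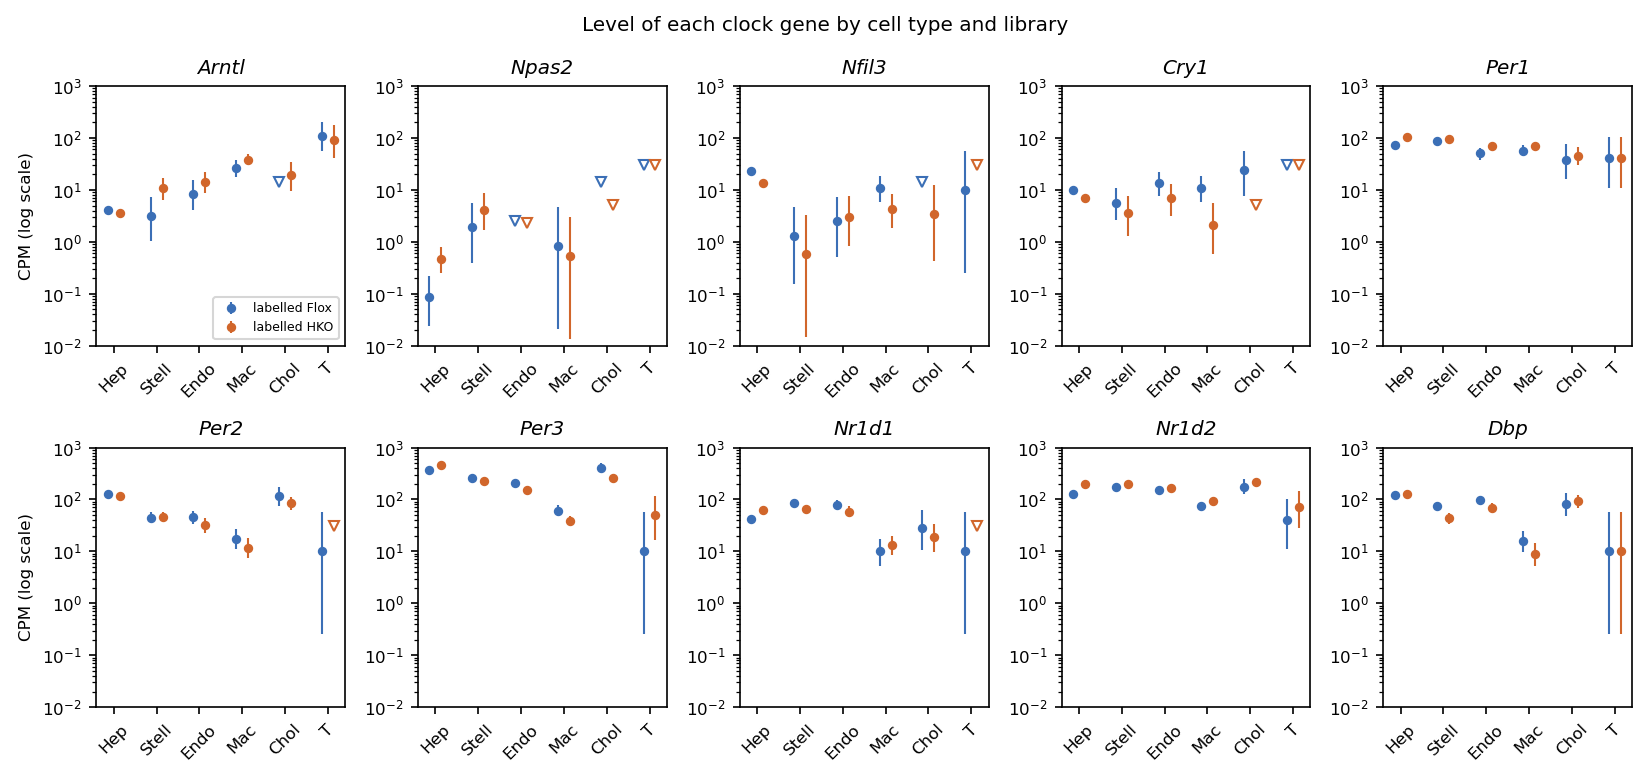
Level of each clock gene in CPM (log scale) in hepatocytes (Hep), stellate cells (Stell), endothelial cells (Endo), macrophages (Mac), cholangiocytes (Chol) and T cells (T). Points are the summed nuclei of the library labelled Flox (blue) or HKO (orange), bars are exact 95% Poisson intervals, and open triangles mark the level that 3 UMIs would give where none was found; *Arntl* is highest in T cells and macrophages, while *Per3* is lowest in these.

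The plot of levels by type shows that the arms are spread unevenly over the liver. In the library labelled Flox cholangiocytes had no UMI of *Arntl*, which allows up to 14.4 CPM at 3 counts, so that they cannot be ranked. *Arntl* was low there in hepatocytes and stellate cells, at 4.06 CPM (3.498 to 4.68) against 3.17 CPM (1.03 to 7.41), which do not differ beyond counting error. Endothelial cells followed at 8.39 CPM (4.02 to 15.4), macrophages at 26.0 CPM (17.6 to 36.9) and T cells at 111 CPM (55.4 to 198). In the library labelled HKO the order ran from hepatocytes at 3.56 CPM (2.89 to 4.34) through stellate cells at 10.7 CPM (6.33 to 16.9), endothelial cells at 14.5 CPM (8.70 to 22.6), cholangiocytes at 19.2 CPM (9.58 to 34.3) and macrophages at 38.5 CPM (30.1 to 48.4) to T cells at 91.5 CPM (41.8 to 174). Stellate, endothelial and cholangiocyte nuclei could not be ranked among themselves there, and the interval of macrophages overlapped those of cholangiocytes and T cells. The T-cell values rest on 11 and 9 UMIs. *Arntl* thus made up 9.14% and 13.7% of all clock-gene UMIs in macrophages and 0.451% and 0.325% in hepatocytes.

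The Per arm had no single order over the types. *Per3* was at 370 and 464 CPM in hepatocytes, 262 and 230 in stellate cells, 209 and 155 in endothelial cells, 61.1 and 39.0 in macrophages, and 398 and 256 in cholangiocytes. Macrophages had the lowest level of the main types for *Per2* (17.6 and 11.8 CPM), *Nr1d1* (10.1 and 13.4 CPM) and *Dbp* (15.9 and 9.08 CPM) as well. In the library labelled Flox *Nr1d1* was higher in stellate (87.0 CPM) and endothelial cells (78.0 CPM) than in hepatocytes (41.3 CPM). *Per1* and *Nr1d2* lay between 50.3 and 104 CPM and between 73.7 and 202 CPM over the main types.

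**Figure D2:**
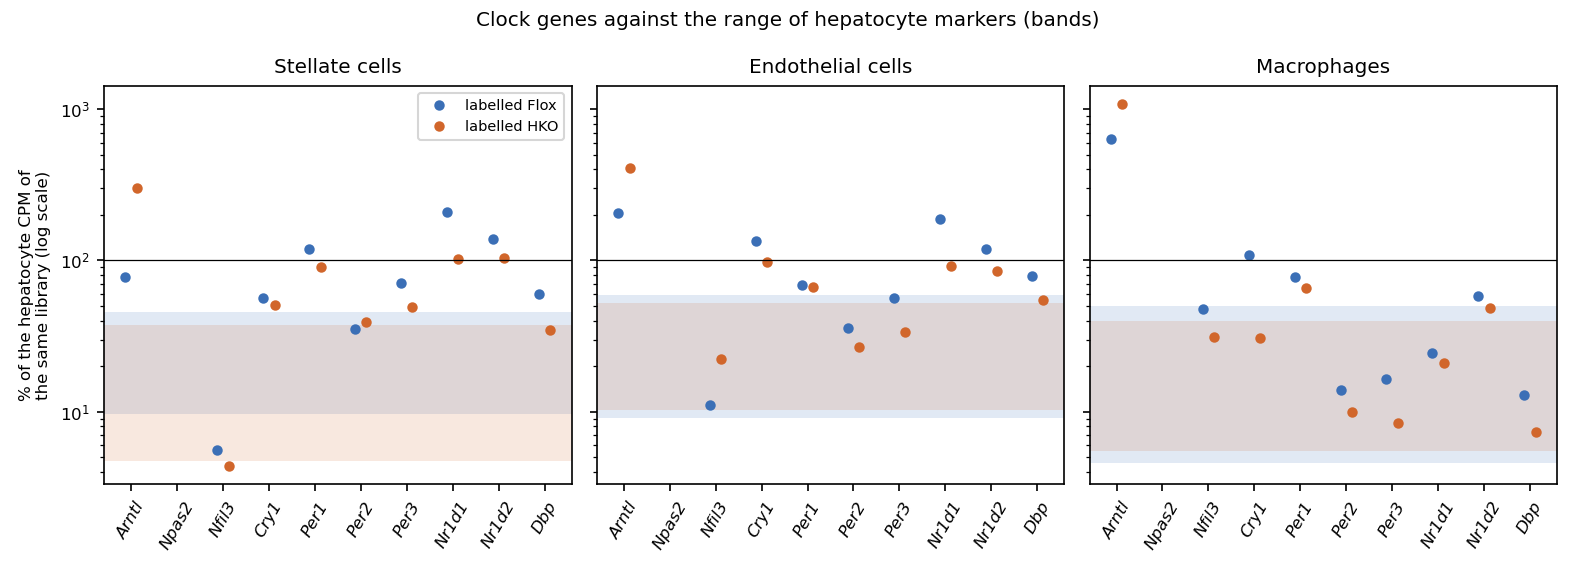
Level of each clock gene in stellate, endothelial and macrophage nuclei as a percentage of its hepatocyte CPM in the same library (log scale; blue labelled Flox, orange labelled HKO; the line is 100%). Bands span the lowest to the highest of the 8 hepatocyte markers on the same scale; *Npas2* is not drawn; *Arntl* lies far above the bands in macrophages, while *Per2*, *Per3*, *Nr1d1* and *Dbp* lie inside them.

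Free hepatocyte RNA in the droplets bears on these levels, and its size differed between the libraries. The 8 hepatocyte markers, summed, reached 26.4% and 19.9% of their hepatocyte CPM in stellate nuclei, 34.8% and 30.7% in endothelial nuclei, and 28.1% and 21.7% in macrophage nuclei. Single markers ranged from 4.57% to 59.3%, and none of the 8 was at 0 in any of these types. In macrophages *Per2* (14.0% and 9.88% of its hepatocyte level), *Per3* (16.5% and 8.41%), *Nr1d1* (24.3% and 20.9%) and *Dbp* (12.8% and 7.29%) lay within the range of the markers, so that their macrophage UMIs are no more than free RNA could give. *Arntl*, at 640% and 1080% of its hepatocyte level, lay above it, as did *Per1* (77.3% and 66.1%) and *Nr1d2* (57.8% and 48.4%). In stellate cells *Nr1d1*, *Nr1d2*, *Per1*, *Per3*, *Cry1* and *Arntl* were above the highest marker in both libraries, while *Per2* (35.3% and 39.4%) was inside the range in the library labelled Flox and just above it in that labelled HKO, and *Dbp* (59.8% and 34.8%) the reverse. In endothelial cells *Per2* (36.0% and 26.9%) and *Per3* (56.4% and 33.5%) were inside the range in both libraries, and so was *Nfil3*.

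In stellate cells, the fibre-forming cells of the sinusoid, *Nr1d1* and *Dbp* were lower in the library labelled HKO, and the Per arm did not lie in 1 direction. *Dbp* stood at 74.3 CPM (61.4 to 89.0) against 43.3 CPM (34.0 to 54.5), for a ratio of 0.583 (0.429 to 0.788). *Nr1d1* stood at 87.0 CPM (137 UMIs) against 65.9 CPM (111 UMIs), for a ratio of 0.758 (0.584 to 0.980). *Per3* had a ratio of 0.876 (0.761 to 1.01), and the ratios of *Per1*, at 1.06 (0.841 to 1.34), *Per2*, at 1.06 (0.755 to 1.48), and *Nr1d2*, at 1.15 (0.976 to 1.35), were not resolved from 1. *Nr1d1*, which was higher in hepatocytes of the library labelled HKO, was thus lower in its stellate nuclei. *Arntl* had 5 and 18 UMIs and a ratio of 3.37 (1.204 to 11.6), *Cry1* 9 and 6 UMIs, *Npas2* 3 and 7, and *Nfil3* 2 and 1. Of the 6 genes with at least 50 UMIs none was past the fold upwards and 1, *Dbp*, was past it downwards, beside 5.15% and 12.3% of the 7685 genes measured.

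In endothelial nuclei *Per3* and *Dbp* had the lower level in the library labelled HKO. *Per3* stood at 209 CPM (184 to 236) against 155 CPM (135 to 178), for a ratio of 0.743 (0.614 to 0.898), and *Dbp* at 98.2 CPM (81.2 to 118) against 68.5 CPM (55.1 to 84.2), for a ratio of 0.698 (0.524 to 0.926). *Nr1d1* had 93 and 77 UMIs, 78.0 and 58.6 CPM, with a ratio of 0.751 (0.548 to 1.03). *Per2*, with a ratio of 0.705 (0.460 to 1.08), lay lower as well but was not resolved from 1. In the other direction, *Per1* had a ratio of 1.38 (0.982 to 1.94), close to that in hepatocytes, and *Nr1d2* one of 1.09 (0.893 to 1.34). *Arntl* had 10 and 19 UMIs and a ratio of 1.72 (0.762 to 4.15), *Cry1* 16 and 9 UMIs and *Nfil3* 3 and 4, while *Npas2* had none, which allows up to 2.52 and 2.28 CPM at the limit of 3 counts. None of the 6 genes with enough UMIs was past the fold in either direction, beside 5.03% of 7104 genes upwards and 9.26% downwards.

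In macrophages the only clock genes above the range of the hepatocyte markers and with enough UMIs were *Arntl*, *Per1* and *Nr1d2*, and all 3 had the higher level in the library labelled HKO. *Arntl* stood at 26.0 CPM (31 UMIs) against 38.5 CPM (72 UMIs), for a ratio of 1.48 (0.960 to 2.34). *Per1* had a ratio of 1.21 (0.895 to 1.65) and *Nr1d2* one of 1.28 (0.982 to 1.67), so that none of these ratios was resolved from 1. *Per3*, with 73 UMIs in each library, had a ratio of 0.638 (0.455 to 0.895), and *Cry1* 13 and 4 UMIs with a ratio of 0.196 (0.0466 to 0.635). The remaining genes were sparse: *Nfil3* had 13 and 8 UMIs, *Per2* 21 and 22, *Nr1d1* 12 and 25, *Dbp* 19 and 17, and *Npas2* 1 and 1. Of the 4 genes with at least 50 UMIs, *Per3* alone was past the fold, downwards, beside 4.83% of 7751 genes upwards and 12.3% downwards. The make-up of the macrophages also differed between the libraries, with *Clec4f*, a Kupffer cell lectin, at 961 and 755 CPM and *Gpnmb*, a gene of lipid-laden macrophages, at 240 and 574 CPM; its part in the ratios was not tested.

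**Figure D3:**
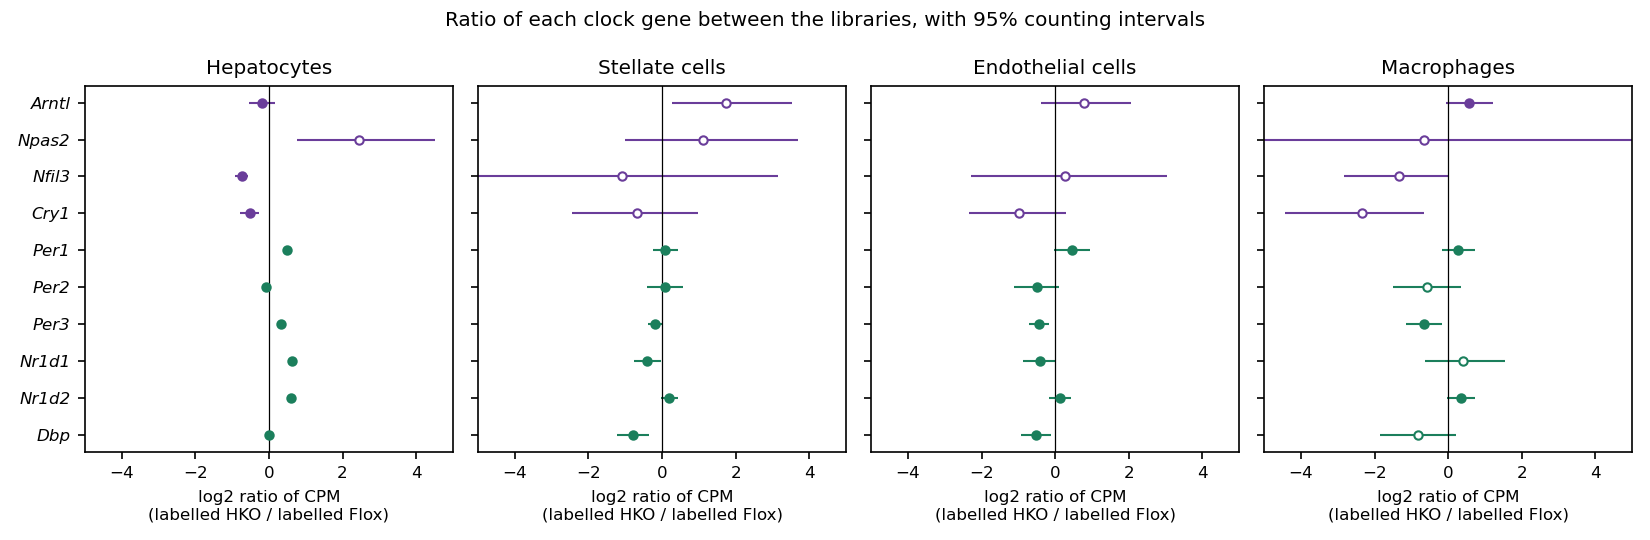
Log2 ratio of CPM, labelled HKO over labelled Flox, for each clock gene in the 4 main cell types, with exact conditional 95% intervals; purple marks the Arntl arm, green the Per arm, and open points genes under 50 UMIs. In hepatocytes the points of *Nfil3* and *Cry1* lie left of 0 and those of *Per1*, *Per3*, *Nr1d1* and *Nr1d2* right of it, while in stellate and endothelial cells *Per3*, *Nr1d1* and *Dbp* lie left.

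Cholangiocytes and T cells add few UMIs. Cholangiocyte *Per3* stood at 398 and 256 CPM, for a ratio of 0.645 (0.489 to 0.854); free RNA was high in this type, where the hepatocyte markers summed to 50.7% and 35.4% of their hepatocyte level, and *Per3* at 107% and 55.3% lay just above and within the range of single markers, which reached 105% and 62.7%. Beside it stood *Nr1d2* with a ratio of 1.24 (0.853 to 1.84) and *Dbp* with one of 1.13 (0.647 to 2.09). Cholangiocyte *Arntl* had 0 and 11 UMIs, where the total of the library labelled Flox allows up to 14.4 CPM at 3 counts, so that the values do not show a difference from the 19.2 CPM of the other library. In T cells *Per1* had 4 and 4 UMIs and *Nr1d2* 4 and 7.

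The balance of the arms was then measured in a way that does not depend on how the libraries are scaled: the share of the clock-gene UMIs that fell to the Per arm. In hepatocytes that share was 95.9% (95.7 to 96.1, Clopper-Pearson) against 97.7% (97.6 to 97.9), which is a log2 odds ratio of 0.90 (0.76 to 1.03). The summed Per arm was at 863 and 1070 CPM, for a ratio of 1.24 (1.22 to 1.26), and the summed Arntl arm at 37.0 and 24.6 CPM, for a ratio of 0.666 (0.609 to 0.729). No such shift was resolved in the other types. The share was 98.4% and 97.3% in stellate cells, with a log2 odds ratio of -0.76 (-1.67 to 0.11), 96.3% and 95.8% in endothelial cells, with one of -0.20 (-0.997 to 0.58), and 82.9% and 83.9% in macrophages, with one of 0.10 (-0.45 to 0.65). The intervals of all 3 lie below that of hepatocytes, but the order depends on single genes: without the gene with most UMIs in each arm the values were 0.67 in hepatocytes, 0.04 in stellate cells, 0.58 in endothelial cells and 1.52 in macrophages. T cells had a log2 odds ratio of 0.92 (-0.93 to 2.78). The widths follow from the 19 to 85 UMIs of the Arntl arm in these types against 1704 and 678 in hepatocytes. In hepatocytes the Arntl arm was mostly *Nfil3* (1050 and 375 UMIs), and in macrophages mostly *Arntl*, so that the same share is not made of the same genes.

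**Figure D4:**
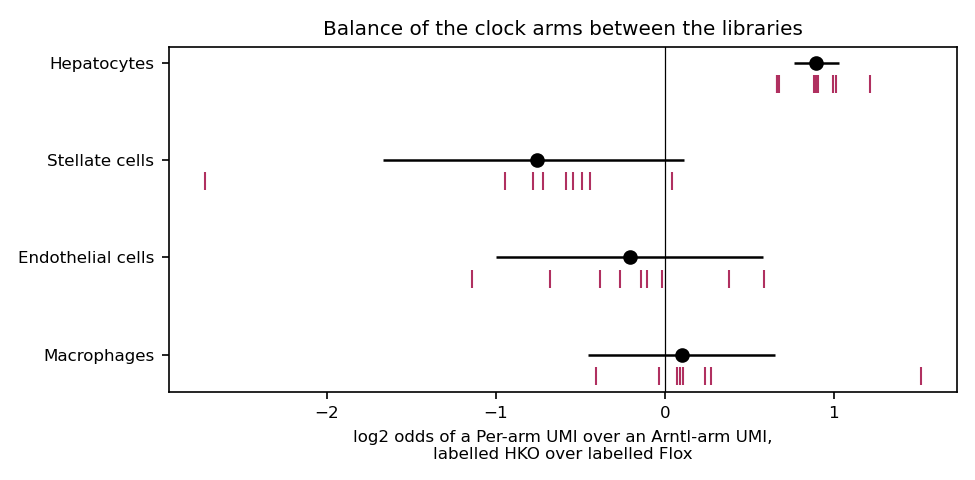
Log2 odds of a Per-arm over an Arntl-arm UMI, labelled HKO over labelled Flox, by cell type; black points and bars are the values with exact 95% intervals, red ticks the values under other processing. Hepatocytes lie at 0.90 with every tick above 0, while ticks of the other 3 types fall on both sides of 0.

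Free RNA enters this number as well. Scaled by the hepatocyte markers, free RNA would account for 31.1% and 31.2% of the Per-arm UMIs of stellate cells, 47.6% and 59.9% of those of endothelial cells, and 103% and 98.3% of those of macrophages. For the Arntl arm the estimates were 81.0% and 25.8% in stellate cells, 52.9% and 31.1% in endothelial cells, and 21.4% and 11.8% in macrophages. With that estimate removed, the log2 odds ratio moved further from that of hepatocytes, to -2.72 in stellate cells (where 3.62 Arntl-arm UMIs were left in the library labelled Flox) and -1.14 in endothelial cells, and none could be given for macrophages. Markers differ several-fold in how much of their hepatocyte level they reach, so that this estimate is coarse.

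The ratios of single genes were also set against each other across types, as the hepatocyte ratio over the ratio of the other type. This was done for clock genes only, so that no share over all genes stands beside these quotients. *Nr1d1* gave 2.04 (1.57 to 2.67) against stellate cells and 2.06 (1.497 to 2.85) against endothelial cells. In the library labelled Flox its level in these types was 210% and 189% of that in hepatocytes, and in the library labelled HKO 103% and 91.6%, so that types set apart in the first library were level in the second. *Per3* gave 1.43 (1.24 to 1.65) against stellate cells, 1.68 (1.39 to 2.04) against endothelial cells and 1.96 (1.40 to 2.75) against macrophages. In both endothelial cells and macrophages its level is within that of free RNA. *Dbp* gave 1.72 (1.27 to 2.35) and 1.44 (1.08 to 1.92) against stellate and endothelial cells. *Nr1d2* gave 1.33 (1.13 to 1.57) and 1.39 (1.13 to 1.71) there, though its ratio was above 1 in every main type before free RNA was considered. *Per1* gave 1.33 (1.05 to 1.69) against stellate cells but 1.03 (0.728 to 1.45) against endothelial cells and 1.17 (0.855 to 1.59) against macrophages, and *Arntl* gave 0.592 (0.352 to 0.988) against macrophages. With the free RNA estimate removed, the *Nr1d1* ratio was 0.699 in stellate cells and 0.612 in endothelial cells, and that of *Dbp* 0.447 and 0.549. For both genes the estimate takes the larger share of the level from the library labelled HKO, where that level was already the lower. Their ratios could thus only fall, and this is no check of their direction. The *Per3* ratio became 0.837 and 0.160 in stellate and endothelial cells, the latter from 95.2 and 16.7 UMIs left. The ratio of *Per2* in stellate cells went from 1.06 to 2.07, and that of *Nr1d2* in endothelial cells from 1.09 to 0.989, to the other side of 1.

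Within hepatocytes the ratios were compared between zone 1 (around the portal vein), zone 3 (around the central vein) and the nuclei between, told by zone marker UMIs. *Nr1d1* had ratios of 1.59 (1.41 to 1.80), 1.62 (1.45 to 1.80) and 1.42 (1.26 to 1.60) from zone 1 through the middle to zone 3, and *Nr1d2* ratios of 1.53, 1.57 and 1.48. *Nfil3* lay at 0.626 (0.511 to 0.762), 0.600 (0.492 to 0.729) and 0.531 (0.410 to 0.682). The receptors and *Nfil3* thus lay on the same side of 1 in all 3 zones, with overlapping intervals. Those of *Per3* did not overlap: its ratio was 1.06 (1.02 to 1.11) in zone 1, 1.27 (1.22 to 1.32) in the middle and 1.44 (1.38 to 1.51) in zone 3. In the library labelled Flox *Per3* was higher in zone 1 than in zone 3, at 402 and 342 CPM, and in that labelled HKO lower, at 428 and 494 CPM. *Dbp* likewise went from 0.882 (0.819 to 0.95) to 0.992 (0.925 to 1.06) and 1.13 (1.04 to 1.23), and *Per2* from 0.852 (0.791 to 0.917) to 0.994 (0.924 to 1.07) and 1.01 (0.927 to 1.09). Zones were cut at the same marker ratio in both libraries and hold different numbers of nuclei, 2064 and 1293 in zone 1 and 2259 and 1176 in zone 3.

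**Figure D5:**
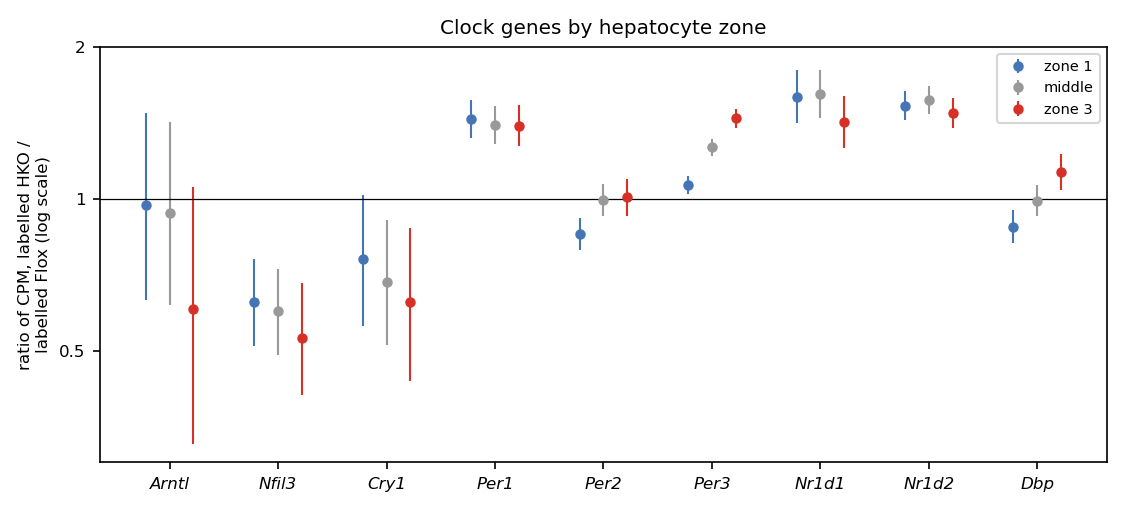
Ratio of CPM, labelled HKO over labelled Flox (log scale), of each clock gene in zone 1 (blue), middle (grey) and zone 3 (red) hepatocytes, with exact conditional 95% intervals; *Npas2* is not drawn. The ratio of *Per3* goes from 1.06 in zone 1 to 1.44 in zone 3, while those of *Nr1d1*, *Nr1d2* and *Per1* stay between 1.40 and 1.62.

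Other genes of the clock were taken as a list of 14, of which 13 had enough UMIs in hepatocytes. There 2 were past the fold upwards and none downwards, beside 10.4% and 11.8% of all genes, with a median log2 ratio of 0.26. *Bhlhe40*, a repressor of BMAL1 that also answers to fasting and hypoxia, stood at 152 and 369 CPM, for a ratio of 2.43 (2.35 to 2.50), and *Csnk1e*, a kinase that marks PER for decay, at 13.6 and 22.7 CPM, for a ratio of 1.67. *Rora*, an activator at the RRE, had a ratio of 1.46, while *Clock* had one of 0.851 and *Bhlhe41* one of 0.714. *Tef* and *Hlf*, the PAR-bZIP relatives of *Dbp*, had hepatocyte ratios of 1.15 (1.13 to 1.18) and 1.16 (1.13 to 1.197). In stellate cells the same 2 genes had ratios of 0.650 (0.570 to 0.740) and 0.644 (0.482 to 0.857), and in endothelial cells 0.650 (0.554 to 0.762) and 0.480 (0.348 to 0.657). Before free RNA was considered, *Dbp*, *Tef* and *Hlf* thus all had the lower level there in the library labelled HKO. *Hlf* lay within the range of the hepatocyte markers in both types and both libraries. With the free RNA estimate removed, 0.916 and 0 UMIs of *Hlf* were left in the library labelled HKO in stellate and endothelial cells, so that no direction of its own is given. The *Tef* ratio became 0.522 and 0.187 in these types, the latter from 167 and 34.5 UMIs left. In stellate cells *Tef* lay above the range of the hepatocyte markers in both libraries. In endothelial cells it lay above it in the library labelled Flox and inside it in that labelled HKO. *Bhlhe40* had ratios of 1.78 (1.40 to 2.28) in stellate cells, 1.52 (1.13 to 2.07) in endothelial cells and 2.11 (1.64 to 2.74) in macrophages. With the free RNA estimate removed these were 1.71 and 2.51 in stellate cells and macrophages. In endothelial cells 8.81 and 0 UMIs were left, so that no direction is given there. Set against its hepatocyte level, *Bhlhe40* lay within the range of the hepatocyte markers in each of these types and in both libraries. Its UMIs there are thus no more than free RNA could give.

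Known outputs of the hepatic clock lay in both directions in hepatocytes, while most genes of its cues were higher in the library labelled HKO. Beside the 10.4% of all genes past the fold upwards and 11.8% downwards, the short lists that follow give counts of a few genes each. Of 10 output genes 4 were past it upwards and 2 downwards, led by *Rgs16*, a regulator of G-protein signalling tied to feeding, with 161 and 486 CPM and a ratio of 3.02, *Nampt*, the enzyme of NAD salvage, with a ratio of 2.03, and *Cyp7a1*, the rate-limiting enzyme of bile acid synthesis, with one of 1.96. *Elovl3*, a fatty acid elongase, had a ratio of 0.403, *Insig2*, which holds SREBP in the endoplasmic reticulum, one of 0.662, and *Wee1*, a kinase that delays mitosis, one of 0.996. Of 5 genes that answer to glucocorticoid, *Per1* among them, 3 were past the fold upwards: *Fkbp5* at 88.5 and 256 CPM, *Zbtb16* at 32.1 and 87.1 CPM and *Sgk1* at 6.97 and 17.0 CPM. Of 9 feeding and fasting genes 4 were past it upwards and none downwards, with *Igfbp1*, a fasting gene, at a ratio of 1.81 and *Srebf1*, which insulin induces, at 1.67. *Angptl4* and *Txnip* alone of this list had ratios below 1, of 0.820 and 0.881. Of 7 temperature genes only *Hspa8*, at 1.56, was past it. The ratios of all 7 were above 1, with that of *Dnajb1*, at 1.05 (0.885 to 1.24), not resolved from it. Median log2 ratios were 0.18 over the outputs and 1.18 over the glucocorticoid genes, beside -0.02 over all genes. Those of the feeding and fasting genes and of the temperature genes were both 0.47. In stellate, endothelial and macrophage nuclei, over genes with enough UMIs and before free RNA was considered, the glucocorticoid medians were 0.09, 0.30 and 0.32. Those of the feeding and fasting genes were -0.08, -0.30 and 0.19, and those of the temperature genes 0.05, 0.11 and -0.07. The cue lists were thus not higher in every type. The part of these cues in the ratios of the clock genes was not tested.

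Genes with the profile most like the median of each arm over the 4 main types were sought among 5560 genes with at least 50 UMIs in every one of these types, by the Euclidean distance of their log2 ratios. For the Per arm, whose median log2 ratios were 0.41 in hepatocytes, -0.06 in stellate cells, -0.42 in endothelial cells and -0.14 in macrophages, these were *Ndel1*, *Plcl2*, *Crk*, *Ifi44* and *Dab2*, at distances of 0.155 to 0.183. For the Arntl arm, with medians of -0.31, 0.16, 0.10 and -0.72, they included *Snu13*, *Recql*, *Ubap2* and *Zfp809*, at distances of 0.115 to 0.1998. No other clock gene was eligible for these lists, and the profile of the Arntl arm outside hepatocytes rests on the few UMIs given above. Its medians are over all 4 genes whatever their depth, unlike the -0.47 given above for hepatocytes. *Npas2* had no UMI in endothelial cells and enters there as 0 only through the added 1 CPM. In hepatocytes it enters as 0.44, from 4 and 13 UMIs.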

How the data were processed

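Nuclei of pooled, snap-frozen livers were sorted and sequenced with the 10x Genomics 3′ kit. Raw UMI counts of every gene and barcode were deposited, 1 matrix per library. The authors had used Cell Ranger 8.0.1 and GRCm38 and left out intronic reads, which lowers the counts of nuclear RNA. Per the labels the library titled WT carries the flox genotype.

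Barcodes with at least 300 detected genes were kept, and the 701 and 920 barcodes with the highest Scrublet scores were taken as doublets (scanpy 1.11.5, 30 components, a rate of 0.8% per 1000 barcodes). A nucleus took a non-parenchymal type with at least 3 UMIs of 2 or more of its markers, which were at least 0.1% of its UMIs and at least 75% of its non-parenchymal marker UMIs. A hepatocyte had under 0.1% of these and at least 5 hepatocyte marker UMIs, making up 0.2% or more. Zones were terciles, over both libraries, of zone 1 against zone 3 marker UMIs. Names stand for a resemblance to the type. Unassigned nuclei (396 and 1167) were not used.

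UMIs were summed per type and library and divided by their total (CPM). Ratios carry no pseudocount; log2 ratios of lists and alternatives carry 1 CPM. Intervals are exact Poisson (CPM), conditional binomial (ratios) and conditional odds (arm balance, ratio of ratios) intervals from scipy 1.17.1; the procedure was tested on simulated data. TMM factors came from edgeR 4.0.16. The clock genes are all named, and of each other list genes with the 3 highest or 3 lowest hepatocyte ratios; *Tef* and *Hlf* were named after their values had been seen, and a few genes that the rule takes are not reported here. The clock genes, arms and lists were chosen with earlier results of these data known. The free RNA estimate for single genes and the counts under other scalings were added after the data had been seen.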

Additional observations from a re-analysis of the deposited data

Results flagged for a closer look

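For several clock genes the hepatocyte ratio and that of another type lay on opposite sides of 1, while the interval of the quotient of both left out 1. This rule was not applied to all genes, so that it is not known how common such pairs are among them. The quotients (hepatocyte ratio over the other) were 1.43 for *Per3*, 2.04 for *Nr1d1* and 1.72 for *Dbp* against stellate cells, and 1.68, 2.06 and 1.44 for the same genes against endothelial cells. Against macrophages they were 1.96 for *Per3* and 0.592 for *Arntl*. The macrophage UMIs of *Per3* are within what free hepatocyte RNA could give, and 0 were left in either library once its estimate was removed. In endothelial cells *Per3*, at 56.4% and 33.5% of its hepatocyte level, was also inside the range of the hepatocyte markers in both libraries. *Dbp* in stellate cells was inside that range in the library labelled HKO. The side of 1 is not resolved for every ratio: the intervals of *Dbp* in hepatocytes, *Arntl* in hepatocytes and macrophages, *Per3* in stellate cells and *Nr1d1* in endothelial cells hold 1. With 1 library per group these differences were not tested across animals, and the intervals cover counting error only.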

How the results depend on the processing

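No paired analysis was possible because each group is 1 library. The log2 odds ratio of the arms in hepatocytes stayed above 0 under all 9 alternatives, from 0.66 to 1.21. It moved past its counting interval to 0.67 without the largest gene of each arm, 0.66 with other clock genes added, 0.67 in zone 1 and 1.21 in zone 3. In stellate cells it went to -2.72 with free RNA subtracted, and in endothelial cells to -1.14 with that and to 0.58 without the largest genes, a change of sign. In macrophages it went to 1.52 without *Arntl* and the largest Per-arm gene, and the subtraction left no Per-arm UMIs in the library labelled Flox. Other alternatives gave values of both signs inside the counting interval in these 3 types. Clock genes past the fold went from 3 to 0 in hepatocytes, from 1 to 0 in stellate cells and from 1 to 0 in macrophages at a ratio of 2. With at least 20 UMIs they went from 1 to 2 in stellate cells, from 0 to 2 in endothelial cells and from 1 to 3 in macrophages. Of 256 values of single genes under alternatives, 14 left their counting interval, 7 of them among hepatocyte nuclei of 1000 to 5000 UMIs. Those of *Npas2* in hepatocytes reflect the CPM added to log2 ratios, which the interval does not carry. Its log2 ratio as reported, 0.44, already lay outside the interval of its ratio (1.68 to 22.9). No gene past the fold changed sign where a value could be given, which excludes *Per3* in macrophages with free RNA subtracted. Among hepatocyte nuclei of 1000 to 5000 UMIs, the log2 ratio of *Nfil3* went from -0.70 to -0.47, short of the fold, and that of *Per1* from 0.50 to 0.33. Further from 0 there were *Cry1* (-0.47 to -0.86), *Nr1d2* (0.60 to 0.86), *Per3*, *Per2* and *Dbp*. Depth limits the Arntl arm outside hepatocytes, and *Per2*, *Nr1d1* and *Dbp* in macrophages.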
